A study of Hordeum vulgare with 10 samples.

Results

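The response of barley roots to ergosterol, the main sterol of fungal membranes, was described across the gene classes named in the annotation, leaving the enzymes of the MEP, MVA and diterpene pathways to the side. The 3 ergosterol libraries were compared with the 3 solvent control libraries, 6 of the 10 libraries of the series. Each transcript was taken once, and 18297 of 37962 transcripts, those that averaged 1 TPM or more in these 6 libraries, were tested. TPM is a relative abundance, the share of a library's transcripts that a transcript holds, corrected for its length.

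The study asked how barley roots respond to lipids of the root endophyte *Serendipita indica* and to ergosterol as their immunogenic component. Wild-type (WT) plants of the cultivar Golden Promise were 7 days old when their roots were cut into pieces of 5 mm, and 24 pieces per well recovered in MES buffer overnight. Ergosterol (250 nM after mixing) was then added to the treated wells, and the solvent control wells received the methanol-containing buffer without it. RNA was taken at 2 hours post treatment (hpt), and each replicate combined the pieces of 2 wells. All 6 libraries therefore share the cutting, the recovery and the methanol. Nothing in the sources used here says whether replicates came from separate batches of plants, so the *p*-values measure the spread between libraries, which may be technical. That spread was estimated within the groups of all 10 libraries, including 4 treated with *S. indica* lipids. Because whole root pieces were extracted, fewer cells of a type and less RNA per cell cannot be told apart.

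Plants perceive fungal molecules such as ergosterol as microbe-associated molecular patterns. Receptor kinases at the cell surface pass the signal to kinase cascades, calcium sensors and NADPH oxidases, and transcription factors such as WRKYs then switch on defence. In cereal roots this defence includes pathogenesis-related proteins, cell wall oxidases, jasmonate and salicylate synthesis, and phenolic compounds made from aromatic amino acids, in barley above all the hydroxycinnamic acid amides of agmatine.

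Between 17960 and 18653 transcripts reached 1 TPM in a solvent control library and between 18009 and 18089 in an ergosterol library. TPM hold no read totals, so the depth behind a value is unknown. Pearson's *r* of log2(TPM + 1) across transcripts lay between 0.971 and 0.982 within a group and between 0.959 and 0.972 between the groups. Descriptions that mark leaf and seed were near the floor, with 3.73 to 8.69 TPM summed over 13 leaf transcripts and 0.457 to 1.92 TPM over 8 seed transcripts. Root transcripts (34 listed) summed to 632 to 961 TPM in the solvent control and 789 to 832 TPM upon ergosterol, so their ranges overlapped. Of the 10 most abundant transcripts of the cut roots 7 were proteinase inhibitors, small proteins that block the digestive enzymes of attackers. Over 6 wound-induced protease inhibitors the sum was 78208, 83449 and 87000 TPM in the solvent control and 92191, 91177 and 101592 TPM upon ergosterol. These sums did not overlap, but 0 of the 51 tested proteinase inhibitors was called, at a median log2 fold change (log2FC) of −0.05. Of the 51, 1 passed the limit on the adjusted *p* given below but fell just short of that on the log2FC. This chymotrypsin inhibitor, HORVU.MOREX.r3.5HG0493360.1, measured 591, 634 and 493 TPM in the solvent control and 1070, 1030 and 1340 TPM upon ergosterol (log2FC 1.00 after rounding, SE 0.13, limma adjusted *p* 0.00152).

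Upon ergosterol treatment 210 transcripts rose and 13 fell. Calls required an adjusted *p* up to 0.05, from limma with Benjamini-Hochberg adjustment over all 18297, together with a log2FC from 1 upwards or from −1 downwards. The log2FC is the difference of the group means of log2(TPM + 1), which understates the change of transcripts of low abundance. The calls were 1.15% of the tested transcripts upwards and 0.071% downwards. In all 223 the 3 ergosterol libraries lay on 1 side of the 3 solvent control libraries. The rises had a median log2FC of 1.29 and reached 3.56, with 21 of them at 2 or more and 147 below 1.5. Their summed abundance was 4815, 5382 and 4614 TPM in the solvent control and 14435, 12911 and 13682 TPM upon ergosterol. Limits of this kind divide a continuum, as the closest transcripts on either side of the upper limit had a log2FC of 1.001 and 0.999.

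**Figure D1:**
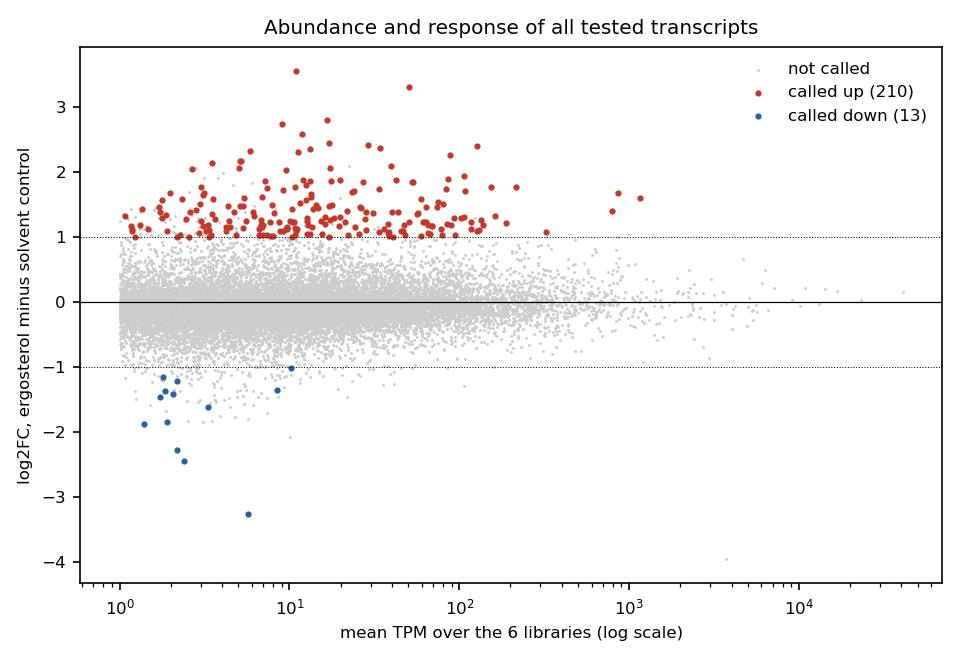
Each point is 1 of the 18297 tested transcripts, with its mean TPM over the 6 libraries on a log scale and its log2FC (ergosterol minus solvent control, on log2(TPM + 1)) on the vertical axis; dotted lines mark the log2FC limits. The 210 called rises (red) have means from 1.08 to 1151 TPM, below the 89 most abundant transcripts, and the 13 called falls (blue) sit at the lower end.

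Most shifts were below the log2FC limit. By the adjusted *p* alone, 518 transcripts were higher upon ergosterol (2.83%) and 84 lower (0.459%). Yet the ergosterol libraries lay above all solvent control libraries for 1662 transcripts (9.08%) and below them for 3116 (17.0%), and the median log2FC of all tested transcripts was −0.08, with 36.9% above 0. Scaling the libraries by their median ratio moved that median to −0.01 and left 47.9% above 0. The counts also moved with single libraries. Solvent control replicate 2 was the highest of its group for 139 of the 210 rises (66.2%, against 49.1% of all tested transcripts), and ergosterol replicate 2 the lowest of its group for 114 (54.3%, against 44.3%). Leaving out 1 of these 6 libraries gave 155 to 252 rises, 252 without solvent control replicate 2, and 126 of the 210 kept their call in every such fit. For the falls the count grew to 25 without solvent control replicate 1, 22 without replicate 2, 26 without ergosterol replicate 2 and, in the fit that all 10 libraries share, 20 without *S. indica* lipid replicate 4, and 5 of the 13 kept their call in all 6 fits. Of 134 called transcripts selected for naming, 95 kept their call in each of these 6 fits. A call that did not is marked below where its transcript is named by its identifier, with the values it took. Class counts can include further such calls.

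Of the 210 rises 161 belonged to 1 of 78 gene classes matched by words in the annotation, and so did 5334 of the tested transcripts. Of the 13 falls 7 did. The classes in which the rises made up the highest shares of tested members were, apart from those with fewer than 10, blue copper proteins (12 of 42) and hydroxycinnamic acid amide and polyamine enzymes (6 of 25). Laccases with ascorbate oxidases had 3 of 14, but 2 of the 3 averaged below 1 TPM in the solvent control and reached the minimum mean through the ergosterol libraries. The same held for 22 of the 210 rises, 1 of them among the 6 of the hydroxycinnamic acid amide class, 3 among the receptor kinases of unspecified type and 3 among the protein kinases of unspecified type, and such members could only be tested if they were higher upon ergosterol. The classes were compared with the background only by such counts and by their medians.

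**Figure D2:**
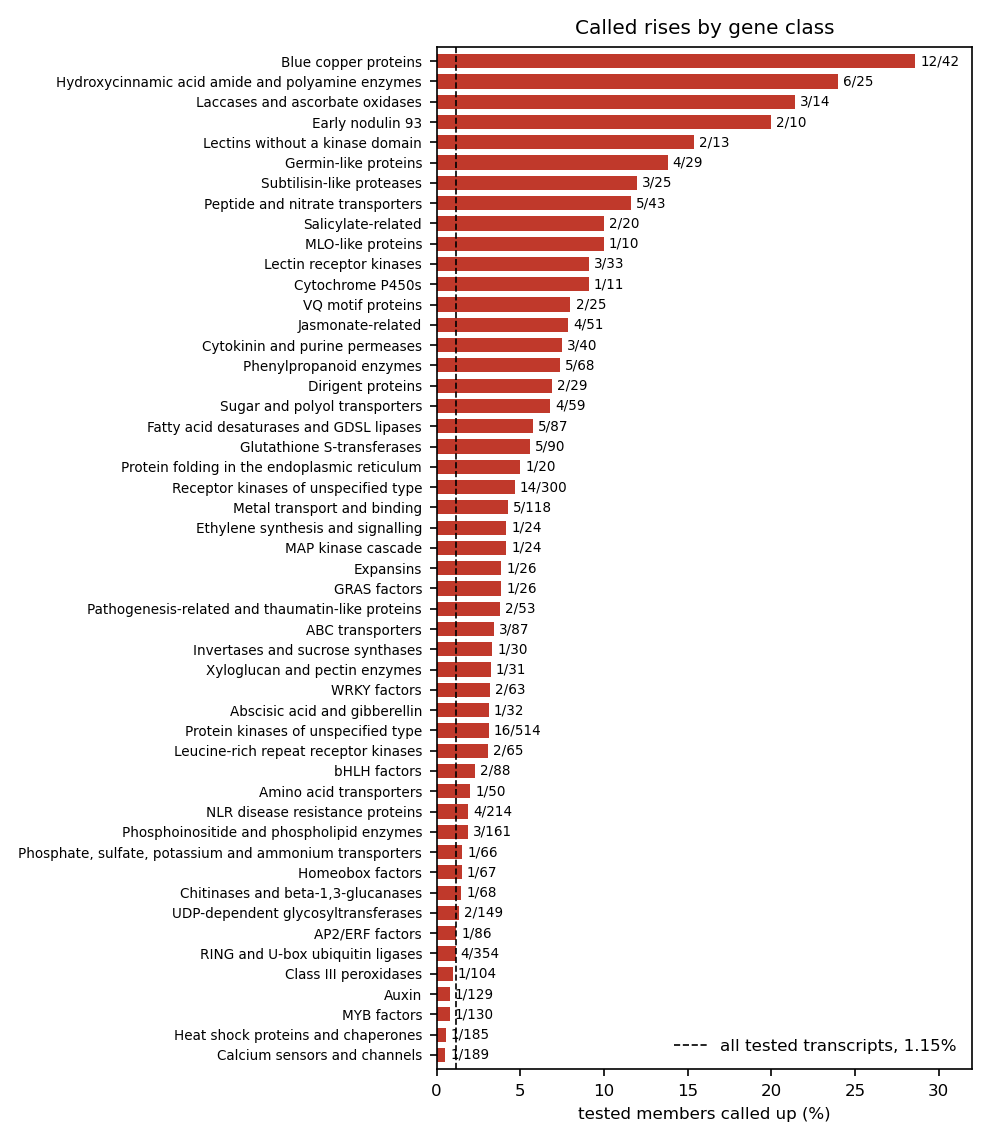
Bars give the percentage of tested members that were called up in each gene class with at least 10 tested members and 1 called rise, with the counts beside them (called/tested). The dashed line is the 1.15% of all tested transcripts, and blue copper proteins stand at the top with 12 of 42.

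Among the cell surface receptors, the receptor-like kinases whose annotation names no type held the most rises. Of 300 tested members 14 rose and 0 fell, which is 4.67% against 1.15% of all transcripts. For 97 of the 300 (32.3%, against 9.08% of all) the ergosterol libraries lay above all solvent control libraries. The class median log2FC was 0.13 (0.19 under median-ratio scaling, and 0.23 without solvent control replicate 2). The count was 9 without ergosterol replicate 1 and 9 without replicate 3. The largest rise was that of the receptor kinase HORVU.MOREX.r3.2HG0216780.1, with 4.54, 4.89 and 3.43 TPM in the solvent control libraries and 20.6, 13.6 and 17.2 TPM in the ergosterol libraries (log2FC 1.77, SE 0.20, adjusted *p* 0.000703). Replicate 2 was the lowest ergosterol library here as well, and the groups stayed well apart.

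Lectin receptor kinases, which carry a sugar-binding domain outside the cell, had 3 rises among 33 tested members (9.09%, against 1.15% of all transcripts). Their class median log2FC was 0.27 (0.19 without solvent control replicate 1). The summed level of the class did not rise, with 3416, 3549 and 2615 TPM in the solvent control and 2681, 2935 and 2770 TPM upon ergosterol. HORVU.MOREX.r3.1HG0009480.1 measured 2.27, 3.86 and 2.27 TPM in the solvent control libraries and 15.8, 9.66 and 10.2 TPM in the ergosterol libraries (log2FC 1.76, SE 0.25, adjusted *p* 0.00303). The neighbouring genes HORVU.MOREX.r3.7HG0648480.1 and HORVU.MOREX.r3.7HG0648470.1 rose with log2FC 1.44 and 1.10. All 3 were lowest in ergosterol replicate 2, and even there the values exceeded each solvent control library. Of 65 leucine-rich repeat receptor kinases, the family of the best-known pattern receptors, 2 rose. HORVU.MOREX.r3.7HG0726150.1 had a log2FC of 1.16 (adjusted *p* 0.00669), and the call of HORVU.MOREX.r3.3HG0318390.1 (log2FC 1.70) was sensitive, with an adjusted *p* of 0.0764, 0.0902, 0.106 and 0.0956 without solvent control replicates 1 and 3 and ergosterol replicates 1 and 3.

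No member passed both limits among 7 wall-associated kinases, 13 cysteine-rich receptor kinases and 12 LysM proteins, the family of chitin receptors. The LysM protein with the smallest *p*, HORVU.MOREX.r3.4HG0417740.1, measured 24.9, 27.6 and 24.7 TPM in the solvent control libraries and 37.8, 37.0 and 37.4 TPM in the ergosterol libraries (log2FC 0.52, SE 0.09, adjusted *p* 0.011). The shift was small, but the groups did not overlap. In contrast, the wall-associated kinase HORVU.MOREX.r3.3HG0306100.1 ranged so widely, with 16.2, 4.82 and 6.47 TPM in the solvent control libraries and 44.0, 11.8 and 35.7 TPM in the ergosterol libraries, that its log2FC of 1.61 missed the threshold (adjusted *p* 0.146) and the groups overlapped. Of 214 intracellular NLR immune receptors 4 rose (1.87%), or 2 without solvent control replicate 3, ergosterol replicate 1 or ergosterol replicate 3, and the median log2FC was −0.01.

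Downstream of the receptors, 16 of 514 protein kinases of unspecified type rose (3.11%), a count that was 10 without ergosterol replicate 1. The largest change was that of the kinase HORVU.MOREX.r3.7HG0642910.1, with 0.226, 1.23 and 0.584 TPM in the solvent control libraries and 5.20, 3.40 and 3.33 TPM in the ergosterol libraries (log2FC 1.59, SE 0.25, adjusted *p* 0.00597). This kinase averaged below 1 TPM in the solvent control and was tested through its ergosterol levels. In the MAP kinase cascade 1 of 24 tested members rose, the MAP kinase kinase kinase HORVU.MOREX.r3.6HG0613640.1. It measured 9.34, 27.0 and 3.23 TPM in the solvent control libraries and 63.0, 42.3 and 60.0 TPM in the ergosterol libraries (log2FC 2.37, SE 0.54, adjusted *p* 0.0403). The solvent control libraries themselves spanned a wide range here, with replicate 2 far above the other two. The call was sensitive, since it ended when any library but that replicate was left out, with adjusted *p* between 0.0643 and 0.144.

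NADPH oxidases release the superoxide of the oxidative burst into the apoplast. None of 10 tested members passed both limits, and the respiratory burst oxidase homolog HORVU.MOREX.r3.4HG0409670.1 came closest, with 41.4, 56.7 and 46.5 TPM in the solvent control libraries and 80.8, 74.8 and 81.5 TPM in the ergosterol libraries (log2FC 0.71, SE 0.13, adjusted *p* 0.0111). Its 3 ergosterol libraries were all above the solvent control. Of 189 calcium sensors and channels only the calmodulin-binding protein HORVU.MOREX.r3.5HG0448660.1 was called (log2FC 1.12, SE 0.13, adjusted *p* 0.00101), a share below that of all transcripts, and the count was 3 without solvent control replicate 2 and 2 without solvent control replicate 1 or ergosterol replicate 3. Among 161 phosphoinositide and phospholipid enzymes 3 rose (1.86%, against 1.15% of all transcripts), and the class median was −0.06. The ergosterol libraries lay above all solvent control libraries for 9.32% and below them for 19.9%, near the 9.08% and 17.0% of all transcripts. The 3 rises were a Sec14p-like phosphatidylinositol transfer protein (HORVU.MOREX.r3.3HG0312200.1, log2FC 1.54), a phospholipase C domain protein (HORVU.MOREX.r3.7HG0707220.1, log2FC 1.37) and a ceramide inositolphosphotransferase (HORVU.MOREX.r3.1HG0074030.1, log2FC 1.10), an enzyme of sphingolipid synthesis. U-box proteins attach ubiquitin to other proteins. HORVU.MOREX.r3.2HG0167350.1 measured 9.21, 6.30 and 5.92 TPM in the solvent control libraries and 22.1, 21.4 and 21.1 TPM in the ergosterol libraries (log2FC 1.49, SE 0.15, adjusted *p* 0.00045), and 4 of 354 RING and U-box proteins rose (1.13%), near the 1.15% of all transcripts, while 2 fell. Of the 4 rises, 2 averaged below 1 TPM in the solvent control and were tested through their ergosterol levels. The MLO-like protein HORVU.MOREX.r3.2HG0107940.3, from the family of the barley mildew susceptibility factor, rose from 37.1, 47.3 and 40.8 TPM to 108, 78.3 and 101 TPM (log2FC 1.17, SE 0.14, adjusted *p* 0.00101), 1 of 10 tested members, with 2 called without replicate 2 of either group.

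Transcription factors contributed few calls. VQ proteins bind WRKY factors, and their class had 2 of 25 members called and a median log2FC of 0.30, as 20 of the 25 were above 0. HORVU.MOREX.r3.5HG0517230.1 rose from 9.55, 7.24 and 6.92 TPM to 35.6, 32.9 and 26.7 TPM (log2FC 1.88, SE 0.19, adjusted *p* 0.000403), and HORVU.MOREX.r3.7HG0708960.1 had a log2FC of 1.47. Of 63 WRKY factors 2 rose (3.17%, against 1.15% of all transcripts), and the median log2FC of the 63 was 0.11. For 21 of them (33.3%, against 9.08% of all transcripts) the ergosterol libraries lay above all solvent control libraries. HORVU.MOREX.r3.1HG0071500.1 changed from 5.89, 8.46 and 5.49 TPM to 16.5, 15.6 and 14.5 TPM (log2FC 1.14, SE 0.18, adjusted *p* 0.00593), whereas the call of HORVU.MOREX.r3.5HG0474120.1 (log2FC 1.06) was sensitive and ended in 5 of the 6 fits, at adjusted *p* between 0.0601 and 0.137.

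The largest rise of any transcription factor was that of the homeodomain-leucine zipper protein HOX19 (HORVU.MOREX.r3.1HG0069120.1), a family of regulators of growth and stress responses. It measured 5.05, 2.19 and 2.87 TPM in the solvent control libraries and 41.8, 28.7 and 19.0 TPM in the ergosterol libraries (log2FC 2.80, SE 0.33, adjusted *p* 0.000993). The lowest ergosterol library was far above the highest solvent control library. The homeobox class as a whole did not follow it, with 1 of 67 called (2 without solvent control replicate 2) and a median log2FC of −0.16 (−0.11 under median-ratio scaling). Both called bHLH factors of 88 tested had tight replicates. HORVU.MOREX.r3.3HG0267290.1 rose from 6.24, 5.47 and 4.80 TPM to 17.9, 19.2 and 16.0 TPM (log2FC 1.53, SE 0.13, adjusted *p* 0.000207), and HORVU.MOREX.r3.3HG0236050.1 from 6.70, 11.1 and 9.01 TPM to 25.9, 26.2 and 28.0 TPM (adjusted *p* 0.000396). AP2/ERF factors (1 of 86), MYB factors (1 of 130) and GRAS factors (1 of 26) each had a single called member, with log2FC 1.04 (HORVU.MOREX.r3.4HG0331360.1), 1.04 (HORVU.MOREX.r3.7HG0736840.1) and 1.02 (HORVU.MOREX.r3.2HG0130900.3). These 3 calls were sensitive. The first had a log2FC of 0.96, 1.00 and 0.97 without solvent control replicates 1 and 2 and ergosterol replicate 1, the second an adjusted *p* of 0.0609 to 0.145 in 5 fits, and the third a log2FC of 0.93 and 1.00 without solvent control replicates 1 and 3. None of 63 NAC factors and 49 bZIP factors was called.

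Jasmonate is made from membrane fatty acids by lipoxygenases and a chain of enzymes that includes 12-oxophytodienoate reductases. Of 51 jasmonate-related transcripts 4 rose (7.84%, against 1.15% of all transcripts). For 18 of the 51 (35.3%, against 9.08% of all) the ergosterol libraries lay above all solvent control libraries. A lipoxygenase (HORVU.MOREX.r3.7HG0679840.1) measured 2.39, 2.66 and 2.55 TPM in the solvent control libraries and 10.4, 12.5 and 12.7 TPM in the ergosterol libraries (log2FC 1.86, SE 0.15, adjusted *p* 0.000207). Its replicates were tight in both groups. The neighbouring 12-oxophytodienoate reductase-like genes HORVU.MOREX.r3.7HG0664260.1 and HORVU.MOREX.r3.7HG0664250.1 rose with log2FC 1.87 and 1.38 (adjusted *p* 0.00356 and 0.000459). A jasmonate ZIM-domain protein, of the family that represses jasmonate responses, was also called (HORVU.MOREX.r3.2HG0163880.2, log2FC 1.01), but this call was sensitive, with an adjusted *p* of 0.0586, 0.0944, 0.0729 and 0.106 without solvent control replicates 1 and 3 and ergosterol replicates 2 and 3.

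Salicylate O-methyltransferases convert salicylate to its volatile methyl ester. Of 20 salicylate-related transcripts 2 rose (10.0%, against 1.15% of all transcripts), both such methyltransferases. The ergosterol libraries lay below all solvent control libraries for 0 of the 20, against 17.0% of all transcripts. HORVU.MOREX.r3.3HG0316070.1 measured 8.67, 9.03 and 8.39 TPM in the solvent control libraries and 23.8, 18.1 and 28.9 TPM in the ergosterol libraries (log2FC 1.32, SE 0.17, adjusted *p* 0.00187), and its neighbour HORVU.MOREX.r3.3HG0316030.1 had a log2FC of 1.42. The oxidase that forms ethylene from its precursor ACC (HORVU.MOREX.r3.1HG0021970.1) rose from 64.7, 43.9 and 55.4 TPM to 139, 123 and 111 TPM (log2FC 1.19, SE 0.17, adjusted *p* 0.00319), 1 of 24 tested ethylene transcripts, with 2 called without solvent control replicate 2 and without ergosterol replicate 3. The 129 auxin-related transcripts had a median log2FC of −0.15 (−0.09 under median-ratio scaling), and for 27 of them (20.9%, against 17.0% of all transcripts) the ergosterol libraries lay below all solvent control libraries. The 1 called rise, the SAUR protein HORVU.MOREX.r3.6HG0595760.1 (log2FC 1.23), was sensitive, at adjusted *p* 0.0506, 0.0530, 0.0848 and 0.0756 without solvent control replicates 1 and 2 and ergosterol replicates 1 and 3, and 2 rises were called without solvent control replicate 3.

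Purine permeases carry purine bases, among them cytokinins, across membranes. The 3 called members were neighbours on chromosome 4H. HORVU.MOREX.r3.4HG0406420.1 measured 3.64, 4.51 and 5.75 TPM in the solvent control libraries and 33.5, 27.2 and 28.6 TPM in the ergosterol libraries (log2FC 2.46, SE 0.20, adjusted *p* 0.000207). HORVU.MOREX.r3.4HG0406450.1 and HORVU.MOREX.r3.4HG0406390.1 rose with log2FC 1.86 and 1.37. In each of the 3 the lowest ergosterol library was above the highest solvent control library, and no other member of the 40 cytokinin transcripts and purine permeases was called. Abscisic stress ripening HORVU.MOREX.r3.3HG0325230.1, named for its response to abscisic acid, measured 1.07, 5.61 and 4.58 TPM in the solvent control libraries and 35.7, 12.1 and 20.5 TPM in the ergosterol libraries (log2FC 2.36, SE 0.45, adjusted *p* 0.017), and its call was sensitive (adjusted *p* 0.0753 without ergosterol replicate 1 and 0.0638 without replicate 3).

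Pathogenesis-related (PR) proteins accumulate in plant tissue under attack. Of 53 tested PR and thaumatin-like transcripts 2 were called, both on chromosome 5H, and the class median was −0.06 (0.12 without ergosterol replicate 2). The PR1 transcript HORVU.MOREX.r3.5HG0444100.1 measured 3.75, 1.11 and 2.61 TPM in the solvent control libraries and 23.2, 9.07 and 31.3 TPM in the ergosterol libraries (log2FC 2.59, SE 0.44, adjusted *p* 0.00921). The PR protein HORVU.MOREX.r3.5HG0444220.1 measured 28.1, 83.1 and 23.0 TPM in the solvent control libraries and 225, 153 and 247 TPM in the ergosterol libraries (log2FC 2.40, SE 0.39, adjusted *p* 0.00652). In both, the lowest ergosterol library was replicate 2, and in the latter solvent control replicate 2 was far above the other controls. More abundant PR1 transcripts passed the adjusted *p* but not the log2FC limit, as HORVU.MOREX.r3.5HG0444170.1 with 541, 767 and 526 TPM in the solvent control libraries and 1060, 936 and 1190 TPM in the ergosterol libraries (log2FC 0.81, SE 0.15, adjusted *p* 0.0165) and HORVU.MOREX.r3.5HG0444080.1 with a log2FC of 0.96. The most abundant PR1 transcript of these roots, HORVU.MOREX.r3.7HG0668900.1, averaged 13021 TPM over the 6 libraries and had a log2FC of −0.03 (SE 0.12, adjusted *p* 0.913).

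Other secreted proteins rose in small families. Subtilisin-like proteases cleave proteins in the apoplast, and 3 of 25 rose. HORVU.MOREX.r3.3HG0294720.1 measured 16.6, 22.7 and 13.7 TPM in the solvent control libraries and 71.8, 63.0 and 65.9 TPM in the ergosterol libraries (log2FC 1.89, SE 0.19, adjusted *p* 0.000396). HORVU.MOREX.r3.7HG0654260.1 rose from 52.3, 47.6 and 48.6 TPM to 202, 141 and 155 TPM (log2FC 1.71). In both, each ergosterol library was well above all solvent control libraries, which were tighter in the second. The call of HORVU.MOREX.r3.3HG0243460.1 (log2FC 1.16) was sensitive, at adjusted *p* 0.0549 without ergosterol replicate 1. Germin-like proteins, cell wall proteins of which some release hydrogen peroxide, had 4 rises among 29 (13.8%) and a median of 0.30. Of the 4, 2 kept their call in each of the 6 fits with a library left out. The largest rise was that of HORVU.MOREX.r3.4HG0418820.1, with 7.63, 5.22 and 4.95 TPM in the solvent control libraries and 22.9, 23.5 and 16.6 TPM in the ergosterol libraries (log2FC 1.67, SE 0.19, adjusted *p* 0.000822). Among chitinases and beta-1,3-glucanases, which degrade fungal walls, 1 of 68 rose (HORVU.MOREX.r3.6HG0592970.1, log2FC 1.28), near the background. No call was made among 17 defensins and thionins.

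Blue copper proteins are small copper-binding proteins of the cell wall and plasma membrane that are thought to carry electrons. With 12 of 42 tested members called up (28.6% against 1.15%) and 0 down, they held more rises than any class but the kinases and receptor kinases of unspecified type, and 10 to 13 were called when a library was left out. The other members were not shifted alike, as the class median was 0.24 (0.08 without solvent control replicate 1) and 15 of the 42 were below 0. Of the 12, 6 were neighbours on chromosome 2H and 4 on chromosome 4H. On 2H, HORVU.MOREX.r3.2HG0213110.1 measured 31.4, 36.5 and 22.5 TPM in the solvent control libraries and 153, 151 and 135 TPM in the ergosterol libraries (log2FC 2.27, SE 0.20, adjusted *p* 0.000324). HORVU.MOREX.r3.2HG0213090.1 changed from 107, 85.7 and 96.3 TPM to 356, 329 and 314 TPM (log2FC 1.78, SE 0.11, adjusted *p* 6.69e-05). On 4H, HORVU.MOREX.r3.4HG0401170.1 had the largest gain of the class in abundance, with 364, 478 and 388 TPM in the solvent control libraries and 1300, 1270 and 1390 TPM in the ergosterol libraries (log2FC 1.69, SE 0.11, adjusted *p* 8.32e-05). Groups were far apart in all of these. Its neighbours HORVU.MOREX.r3.4HG0401180.1 and HORVU.MOREX.r3.4HG0401190.1 were higher in solvent control replicate 2 than in the other controls, at 16.6, 52.8 and 26.1 TPM and 20.5, 45.0 and 25.4 TPM. Summed over the 88 listed members, blue copper proteins held 2677, 3208 and 2956 TPM in the solvent control and 4753, 4845 and 4774 TPM upon ergosterol. Transcripts of such neighbouring copies can share reads, so their separate values are less certain than their sum.

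Neighbouring genes were called together in other classes too. Of the 210 rises 61 lay in 24 runs of identifiers with at most 5 listed loci between called members. Besides the blue copper proteins and purine permeases, these runs held 3 peptide and major facilitator transporters on 6H (log2FC 2.05 to 2.18), 2 ubiquinol oxidases on 2H, 2 agmatine coumaroyltransferases on 4H, 2 phenylalanine ammonia-lyases on 2H and 2 dirigent proteins on 5H. By chromosome, the rises ranged from 22 of 2341 tested transcripts on 1H to 45 of 3012 on 2H.

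Among other oxidases, the ubiquinol oxidases, or alternative oxidases, let mitochondrial electrons bypass part of the respiratory chain. Of 4 tested members 2 rose. HORVU.MOREX.r3.2HG0193660.1 measured 7.14, 5.04 and 5.98 TPM in the solvent control libraries and 29.5, 31.4 and 25.0 TPM in the ergosterol libraries (log2FC 2.07, SE 0.14, adjusted *p* 8.32e-05), and HORVU.MOREX.r3.2HG0193650.1 had a log2FC of 1.27. Solvent control replicate 2 was the lowest library in both, whereas it was the highest control in most other rises. Laccases and ascorbate oxidases, copper enzymes of the cell wall, had 3 called members among 14 (2 of which were tested through their ergosterol levels, as given above), all of low abundance. The third was the laccase HORVU.MOREX.r3.1HG0020450.1 with 2.32, 3.22 and 3.02 TPM in the solvent control libraries and 6.47, 8.12 and 10.1 TPM in the ergosterol libraries (log2FC 1.25, SE 0.17, adjusted *p* 0.00266). The ascorbate oxidase HORVU.MOREX.r3.5HG0494290.1 (log2FC 1.44) fell below 1 TPM on average, and so was not tested, without ergosterol replicate 1, and the laccase HORVU.MOREX.r3.3HG0313580.1 (log2FC 1.13) was sensitive, with adjusted *p* 0.0616, 0.0762, 0.0596 and 0.0907 without solvent control replicates 1 and 3 and ergosterol replicates 2 and 3. Of 104 class III peroxidases, which oxidize phenolics in the wall, 1 was called (HORVU.MOREX.r3.3HG0291910.1, log2FC 1.36, SE 0.19, adjusted *p* 0.00306) and the median was −0.14 (−0.07 without solvent control replicate 2), against −0.08 for all transcripts (−0.05 without that library).

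Glutathione S-transferases conjugate reactive compounds to glutathione. Of 90 tested members 5 rose (5.56%, against 1.15% of all transcripts). For 26 of the 90 (28.9%, against 9.08% of all) the ergosterol libraries lay above all solvent control libraries. HORVU.MOREX.r3.6HG0548070.1 measured 94.7, 126 and 119 TPM in the solvent control libraries and 268, 253 and 268 TPM in the ergosterol libraries (log2FC 1.22, SE 0.11, adjusted *p* 0.000327), and HORVU.MOREX.r3.1HG0051880.1 rose from 84.3, 89.5 and 73.8 TPM to 233, 167 and 176 TPM (log2FC 1.20). The class is among the most abundant in these roots, and its summed level was 18050, 17360 and 17210 TPM in the solvent control and 19570, 18960 and 19510 TPM upon ergosterol. Early nodulin 93 transcripts, first described in legume root nodules, had the highest class median of those with at least 10 tested members, 1.06, with 9 of 10 above 0 and 2 called. That median was 0.76 without solvent control replicate 1 and 1.28 without ergosterol replicate 1. The most abundant members, HORVU.MOREX.r3.7HG0655770.1 and HORVU.MOREX.r3.6HG0580890.1, averaged 387 and 151 TPM in the solvent control and had a log2FC of 0.16 and −0.01. HORVU.MOREX.r3.7HG0649550.1 measured 27.5, 55.1 and 37.0 TPM in the solvent control libraries and 91.8, 131 and 104 TPM in the ergosterol libraries (log2FC 1.47, SE 0.26, adjusted *p* 0.0109), and HORVU.MOREX.r3.7HG0649570.1 had a log2FC of 1.80. Here replicate 2 was the highest library in both groups. The latter call was sensitive, at adjusted *p* 0.0557 to 0.113 in 5 fits.

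**Figure D3:**
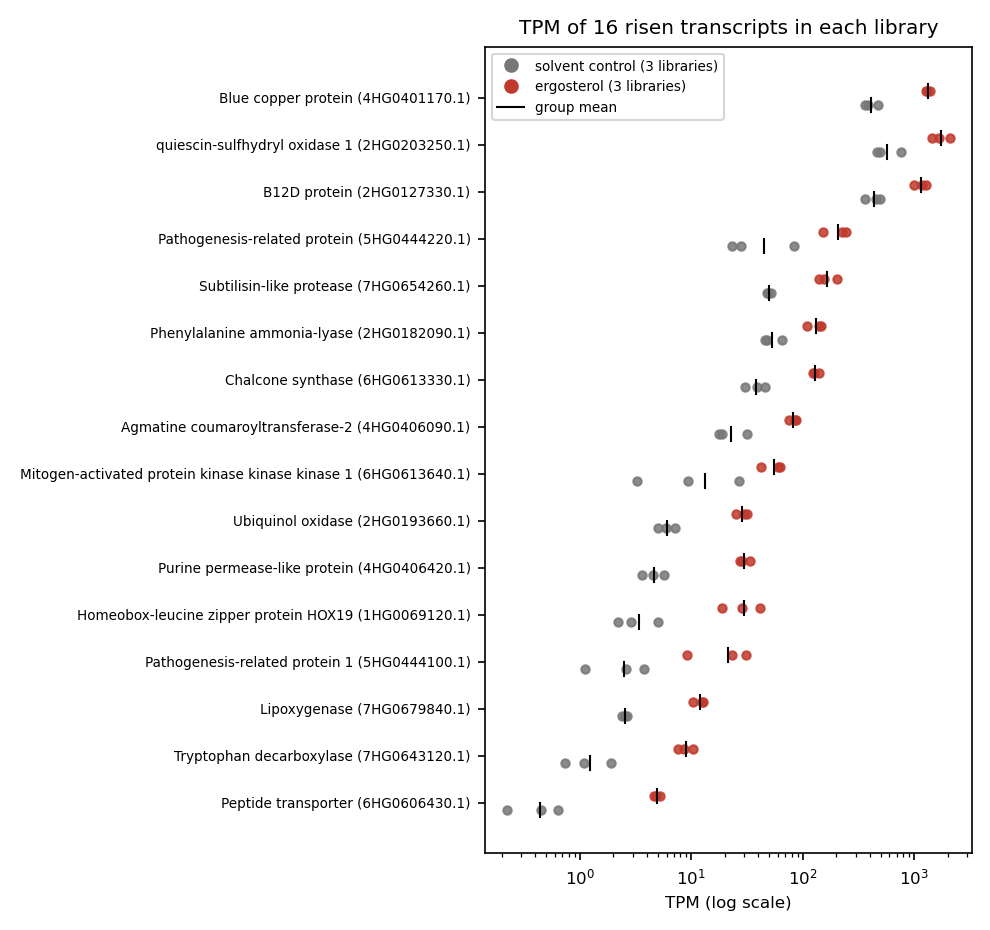
TPM (log scale) of 16 called transcripts in each of the 3 solvent control (grey) and 3 ergosterol (red) libraries, with group means as black bars. The groups do not overlap in any of them, and the control libraries of the MAP kinase kinase kinase and of the PR protein 5HG0444220.1 spread most widely.

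The phenolic branch of defence starts from aromatic amino acids. No member of the 38 shikimate and aromatic amino acid enzymes was called. Their median was 0.11 (0.03 without solvent control replicate 1 and 0.07 without ergosterol replicate 1), and the arogenate dehydratase HORVU.MOREX.r3.2HG0165450.1, which leads to phenylalanine, had the smallest *p* with 10.5, 12.1 and 11.1 TPM in the solvent control libraries and 16.2, 18.2 and 15.8 TPM in the ergosterol libraries (log2FC 0.54, SE 0.11, adjusted *p* 0.0237). Phenylalanine ammonia-lyase then opens the phenylpropanoid pathway, and 4 of its 11 tested transcripts rose. HORVU.MOREX.r3.2HG0182090.1 measured 46.0, 65.6 and 47.8 TPM in the solvent control libraries and 141, 109 and 146 TPM in the ergosterol libraries (log2FC 1.31, SE 0.15, adjusted *p* 0.000861). A chalcone synthase, the entry to flavonoids, rose as well, with 45.7, 30.3 and 38.7 TPM in the solvent control libraries and 126, 140 and 123 TPM in the ergosterol libraries for HORVU.MOREX.r3.6HG0613330.1 (log2FC 1.75, SE 0.17, adjusted *p* 0.000396). These made up the 5 called members of 68 phenylpropanoid enzymes, which became 9 without solvent control replicate 2. That library was the highest control for the ammonia-lyase and the lowest for chalcone synthase.

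Agmatine coumaroyltransferases join agmatine to hydroxycinnamic acids, the step towards the antifungal hordatines of barley. They rose in 5 of 12 tested transcripts, and arginine decarboxylase, which makes agmatine, rose too. HORVU.MOREX.r3.4HG0406090.1 measured 19.0, 31.4 and 17.9 TPM in the solvent control libraries and 75.8, 84.6 and 86.4 TPM in the ergosterol libraries (log2FC 1.85, SE 0.19, adjusted *p* 0.000459). HORVU.MOREX.r3.4HG0406080.1 beside it changed from 9.59, 17.9 and 7.72 TPM to 40.8, 38.4 and 48.7 TPM (log2FC 1.85, SE 0.28, adjusted *p* 0.00495). The most abundant, HORVU.MOREX.r3.2HG0200920.1, averaged 50.6 TPM in the solvent control and 118 TPM upon ergosterol (log2FC 1.20, SE 0.13, adjusted *p* 0.000583). Arginine decarboxylase HORVU.MOREX.r3.7HG0644220.1 averaged 69.4 and 164 TPM (log2FC 1.24, SE 0.16, adjusted *p* 0.00185). The 6 calls of this class of 25 were made whichever of the 6 libraries was left out, and its 50 listed members summed to 739, 757 and 741 TPM in the solvent control and 980, 1035 and 1013 TPM upon ergosterol. Tryptophan decarboxylase makes tryptamine, the precursor of indole amines. HORVU.MOREX.r3.7HG0643120.1 measured 0.731, 1.90 and 1.10 TPM in the solvent control libraries and 10.4, 8.69 and 7.67 TPM in the ergosterol libraries (log2FC 2.17, SE 0.21, adjusted *p* 0.000396), and HORVU.MOREX.r3.2HG0205260.1 (log2FC 1.33) averaged below 1 TPM in the solvent control and was tested through its ergosterol levels alone, and not once any ergosterol library was left out. No share is therefore given for the 6 tested aromatic amino acid decarboxylases.

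Glycosyltransferases that tag small molecules with sugars were called near the background rate (2 of 149), although HORVU.MOREX.r3.4HG0341100.1 rose strongly, from 2.78, 3.46 and 3.22 TPM to 16.4, 13.6 and 18.1 TPM (log2FC 2.03, SE 0.21, adjusted *p* 0.000424). The other call, HORVU.MOREX.r3.3HG0310480.1, was sensitive and had a log2FC of 0.86 without solvent control replicate 3 and 0.99 without ergosterol replicate 2. Dirigent proteins, which steer the coupling of phenolic radicals, had 2 rises among 29, the neighbours HORVU.MOREX.r3.5HG0510240.1 and HORVU.MOREX.r3.5HG0510250.1 with log2FC 1.12 and 1.04. Both were sensitive, with log2FC 0.94 and 0.99 without solvent control replicate 3, and the second 0.97 without ergosterol replicate 1.

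Single transporters for organic solutes and metals rose in several families. Of 43 peptide and nitrate transporters 5 were called (11.6%, against 1.15% of all transcripts), at a class median of 0.11. Of the 5, 3 kept their call in each of the 6 fits with a library left out. HORVU.MOREX.r3.6HG0606430.1 measured 0.446, 0.643 and 0.224 TPM in the solvent control libraries and 5.22, 4.66 and 4.86 TPM in the ergosterol libraries (log2FC 2.05, SE 0.18, adjusted *p* 0.000327), and its neighbours HORVU.MOREX.r3.6HG0606340.1 and HORVU.MOREX.r3.6HG0606350.1 had log2FC of 2.07 and 2.18. All were below 2 TPM in each solvent control library and at 4.66 TPM or more in each ergosterol library. The first, HORVU.MOREX.r3.6HG0606430.1, averaged below 1 TPM in the solvent control and was tested through its ergosterol levels. Sugar and polyol transporters had 4 rises among 59 (6.78%), the largest in HORVU.MOREX.r3.4HG0399620.1 (log2FC 1.32) and the polyol transporter HORVU.MOREX.r3.2HG0131170.1 (log2FC 1.32). Of the 4, 3 kept their call in all 6 fits, and the class median was −0.04, against −0.08 of all transcripts. The abundant sugar transporter HORVU.MOREX.r3.2HG0157210.1 passed the adjusted *p* only, with 668, 698 and 634 TPM in the solvent control libraries and 938, 1030 and 1070 TPM in the ergosterol libraries (log2FC 0.60, SE 0.09, adjusted *p* 0.0055). Among 87 ABC transporters, membrane pumps of many plant metabolites, 3 rose (3.45%), and the class median was −0.00. HORVU.MOREX.r3.1HG0076600.1 measured 41.9, 45.8 and 34.8 TPM in the solvent control libraries and 138, 97.9 and 122 TPM in the ergosterol libraries (log2FC 1.52, SE 0.16, adjusted *p* 0.00047), and the pleiotropic drug resistance transporter HORVU.MOREX.r3.7HG0722560.1 had a log2FC of 1.45. The third, HORVU.MOREX.r3.1HG0076590.1 (log2FC 1.06), was sensitive, at log2FC 0.99 without solvent control replicate 3 and 0.94 without ergosterol replicate 1. Of 118 metal transport and binding proteins 5 rose (4.24%), at a class median of −0.00, and 3 of the 5 kept their call in all 6 fits. Among the 5 was the yellow stripe transporter HORVU.MOREX.r3.7HG0727810.1, from a family that takes up metal chelates. It measured 0.227, 0.841 and 0.138 TPM in the solvent control libraries and 3.90, 2.38 and 3.13 TPM in the ergosterol libraries (log2FC 1.58, SE 0.26, adjusted *p* 0.00652). This transporter averaged below 1 TPM in the solvent control and was tested through its ergosterol levels.

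Water channels had no rises. Of 26 tested aquaporins 0 were called in either direction, but 5 passed the adjusted *p* with a lower level upon ergosterol, a number that became 1 under median-ratio scaling. For 14 of the 26 (53.8%, against 17.0% of all transcripts) the ergosterol libraries lay below all solvent control libraries. The most abundant of them, HORVU.MOREX.r3.4HG0407580.1, measured 2860, 2550 and 3150 TPM in the solvent control libraries and 1780, 2130 and 1890 TPM in the ergosterol libraries (log2FC −0.56, SE 0.12, adjusted *p* 0.0255). HORVU.MOREX.r3.6HG0631700.1 measured 290, 328 and 351 TPM in the solvent control libraries and 211, 244 and 234 TPM in the ergosterol libraries (log2FC −0.49, SE 0.10, adjusted *p* 0.0221). In both, all ergosterol libraries were below all controls. The 44 listed aquaporins summed to 5215, 5038 and 5794 TPM in the solvent control and to 3715, 4235 and 3804 TPM upon ergosterol, and the class median was −0.21 (−0.14 under median-ratio scaling).

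In primary metabolism and secretion the calls were scattered. Omega-3 fatty acid desaturase HORVU.MOREX.r3.4HG0384980.1, which makes the polyunsaturated fatty acids from which jasmonate derives, measured 27.4, 31.3 and 30.2 TPM in the solvent control libraries and 77.0, 66.4 and 69.2 TPM in the ergosterol libraries (log2FC 1.23, SE 0.11, adjusted *p* 0.000327). It was 1 of 5 called among 87 desaturases and GDSL lipases (5.75%, against 1.15% of all transcripts). Of the 5, 3 kept their call in each of the 6 fits with a library left out. 1-pyrroline-5-carboxylate dehydrogenase, of proline breakdown (HORVU.MOREX.r3.5HG0517210.1), rose from 0.469, 1.58 and 0.567 TPM to 4.93, 5.29 and 5.35 TPM (log2FC 1.77, SE 0.26, adjusted *p* 0.00356). This dehydrogenase averaged below 1 TPM in the solvent control and was tested through its ergosterol levels. Quiescin-sulfhydryl oxidase, which forms disulfide bonds in secreted proteins, had the largest gain in mean TPM of all called transcripts, with 754, 464 and 497 TPM in the solvent control libraries and 2090, 1670 and 1430 TPM in the ergosterol libraries for HORVU.MOREX.r3.2HG0203250.1 (log2FC 1.61, SE 0.22, adjusted *p* 0.00228). The B12D protein HORVU.MOREX.r3.2HG0127330.1, from a family first described in barley grain, had a smaller gain, with 361, 497 and 455 TPM in the solvent control libraries and 1000, 1180 and 1280 TPM in the ergosterol libraries (log2FC 1.40, SE 0.16, adjusted *p* 0.000839). The groups did not overlap in either of these abundant transcripts. The SNARE protein SNAP33 of the secretory pathway (HORVU.MOREX.r3.7HG0641110.1) stayed below the log2FC limit, with 81.3, 77.4 and 86.5 TPM in the solvent control libraries and 124, 129 and 119 TPM in the ergosterol libraries (log2FC 0.60, SE 0.08, adjusted *p* 0.0032), and 0 of 81 vesicle traffic transcripts was called. None of 100 glycolysis, fermentation and pentose phosphate enzymes was called.

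The 13 falls concerned transcripts of low abundance, with a median of 3.52 TPM in the solvent control. Of these, 4 were listed at 0 in all ergosterol libraries. The RING/U-box protein HORVU.MOREX.r3.6HG0560760.1 measured 4.89, 24.5 and 4.92 TPM in the solvent control, the lipid-transfer protein HORVU.MOREX.r3.5HG0460360.1 3.40, 7.57 and 3.31 TPM, the F-box protein HORVU.MOREX.r3.2HG0108370.1 2.00, 7.51 and 3.48 TPM and the transposase HORVU.MOREX.r3.5HG0537240.1 3.15, 3.60 and 1.60 TPM. In all 4 solvent control replicate 2 was the highest, and no fold is given against a level listed at 0. The call of the first was sensitive, at adjusted *p* 0.0557 and 0.0534 without ergosterol replicates 1 and 3, and the transposase averaged too little to be tested without solvent control replicate 2. Another RING/U-box protein, HORVU.MOREX.r3.7HG0687790.1, fell with 7.23, 3.48 and 5.84 TPM in the solvent control libraries and 1.26, 1.13 and 0.817 TPM in the ergosterol libraries (log2FC −1.62, SE 0.25, adjusted *p* 0.00503). Expansins loosen the cell wall during growth, and HORVU.MOREX.r3.1HG0071050.1 fell with 2.60, 4.69 and 3.13 TPM in the solvent control libraries and 0.542, 0.556 and 0.902 TPM in the ergosterol libraries (log2FC −1.40, SE 0.21, adjusted *p* 0.00434). A histone H2A (HORVU.MOREX.r3.5HG0487640.1) fell with 9.28, 13.0 and 15.4 TPM in the solvent control libraries and 5.10, 3.62 and 4.13 TPM in the ergosterol libraries (log2FC −1.34, adjusted *p* 0.0495), but its call ended in all 6 fits with a library left out, at adjusted *p* between 0.0594 and 0.177. The same held in 5 fits for the type 2C protein phosphatase HORVU.MOREX.r3.6HG0568830.1 (log2FC −1.37), at adjusted *p* between 0.0791 and 0.162. This phosphatase, the expansin and the 4 falls listed at 0 averaged below 1 TPM upon ergosterol. So did the TLC ATP/ADP transporter HORVU.MOREX.r3.6HG0624310.1 (log2FC −1.85) and the alpha/beta-hydrolase HORVU.MOREX.r3.3HG0323430.3 (log2FC −1.46). The call of that transporter was sensitive, at adjusted *p* 0.0549 without solvent control replicate 1 and 0.0664 without ergosterol replicate 3. All these falls below 1 TPM upon ergosterol reached the minimum mean through the solvent control libraries. Such transcripts could only be tested if they were lower upon ergosterol.

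**Figure D4:**
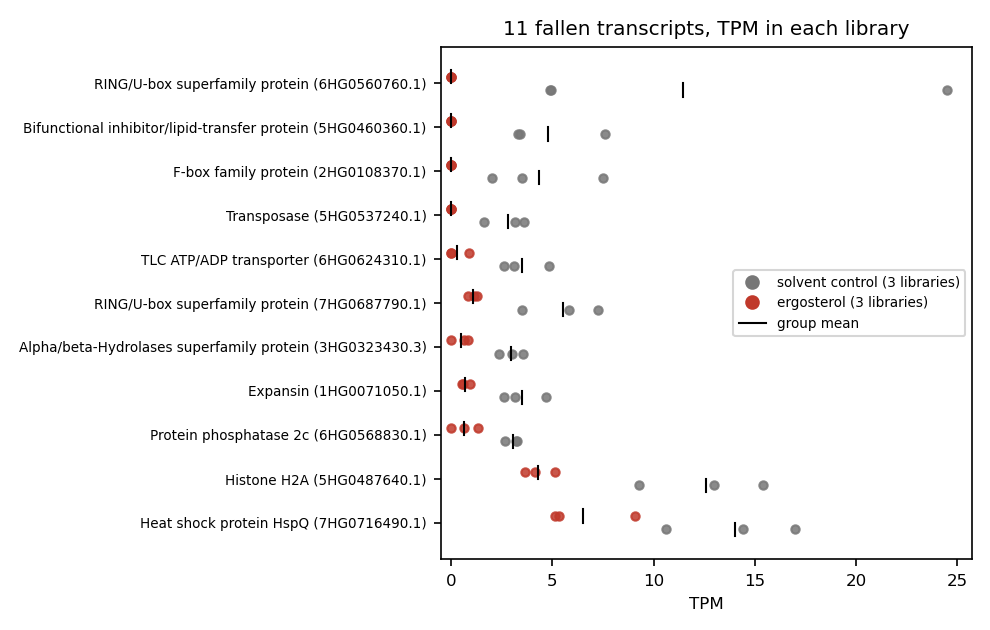
TPM of the 11 named transcripts among the 13 called falls in each solvent control (grey) and ergosterol (red) library, with group means as black bars. Of these, 4 are listed at 0 in all 3 ergosterol libraries, and in the first of them solvent control replicate 2 stands far above the other controls.

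Classes of growth and basic cell machinery had few calls. The median of 185 heat shock proteins and chaperones, −0.07, was at that of all transcripts, and 1 of them rose and 1 fell. Both calls were sensitive, as the rise ended in 5 of the 6 fits with a library left out and the fall in 4. For 142 histones the median log2FC was −0.43, with 125 below 0. The ergosterol libraries lay below all solvent control libraries for 30 of them (21.1%, near the 17.0% of all transcripts). That median was −0.18 without solvent control replicate 3, the library with the highest summed histone level, 11650 TPM against 10050 and 9804 TPM in the other controls and 8766, 10660 and 9052 TPM upon ergosterol, so the summed levels overlapped. Ribosomal proteins (35 tested) had a median of −0.37 and arabinogalactan and extensin proteins (33 tested) of −0.43, both still below 0 under median-ratio scaling, at −0.30 and −0.39. Without ergosterol replicate 1 the ribosomal median was −0.22, and without solvent control replicate 3 that of the arabinogalactan and extensin proteins was −0.28. The fasciclin-like arabinogalactan protein HORVU.MOREX.r3.5HG0488780.1 had an adjusted *p* within the threshold but missed the log2FC limit, with 9.16, 9.44 and 14.2 TPM in the solvent control libraries and 5.24, 5.40 and 4.97 TPM in the ergosterol libraries (log2FC −0.92, SE 0.21, adjusted *p* 0.039). Expansins had a median of −0.42 over 26 (−0.21 without solvent control replicate 2 and −0.23 without ergosterol replicate 1), with 1 rise and 1 fall. The rise was lost without replicate 1 or 2 of either group, and 2 falls were called without solvent control replicate 1. Tubulins and actins (42 tested, median −0.14), proteasome subunits (54 tested, −0.13) and cyclins (40 tested, −0.10) had medians close to the −0.08 of all transcripts and 0 calls. Medians this close to 0 moved by more than 1.5 times with single libraries, as that of the cyclins to −0.19 without solvent control replicate 1. In these 3 classes the ergosterol libraries lay below all solvent control libraries for 26.2%, 27.8% and 17.5% of members, against 17.0% of all transcripts. They lay above them for 0.0%, 1.85% and 0.0%, against 9.08% of all transcripts.

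**Figure D5:**
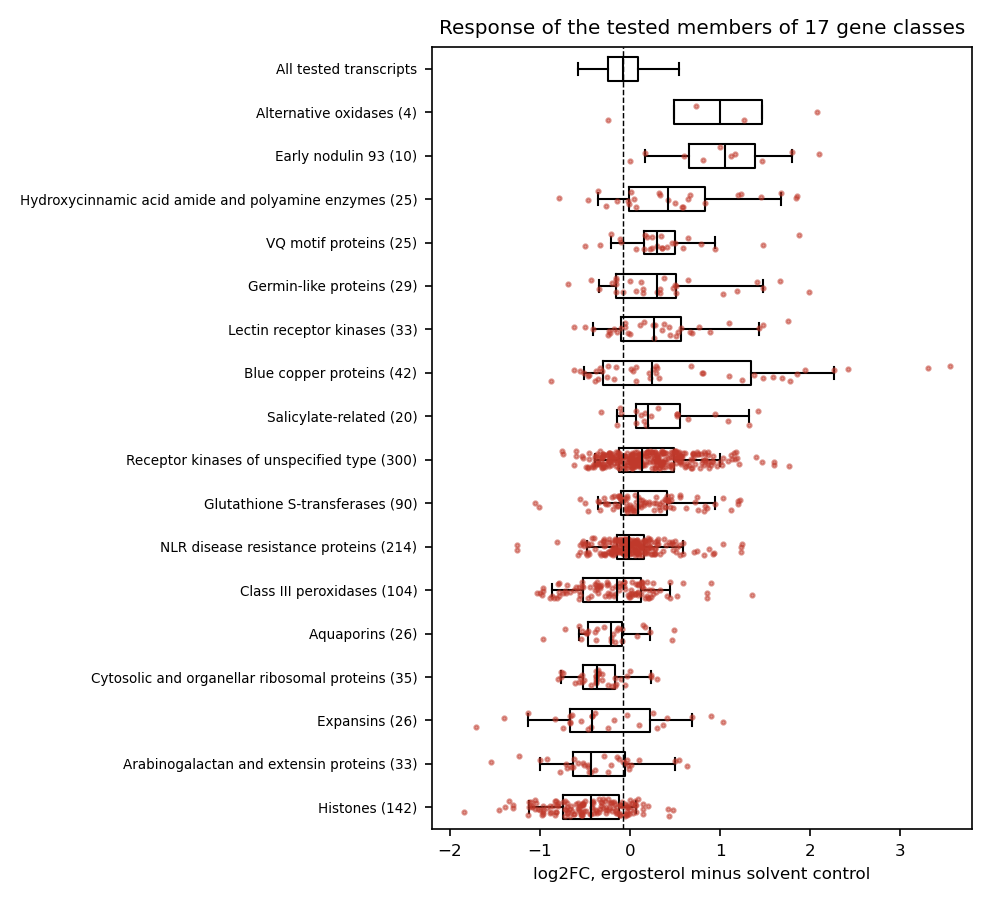
Boxes show the median and quartiles and whiskers the 5th to 95th percentile of log2FC (ergosterol minus solvent control) for all tested transcripts and for 17 gene classes, with the number of tested members in brackets and each member as a red point. The dashed line is the median of all tested transcripts, −0.08; histones and ribosomal proteins lie mostly to its left, and blue copper proteins reach from below 0 to 3.56.

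Outside the classes 49 transcripts rose. Chosen after their values were seen, these included a carbonic anhydrase (HORVU.MOREX.r3.7HG0733480.1, log2FC 1.27, SE 0.11, adjusted *p* 0.000327), which converts carbon dioxide to bicarbonate, an L-gulonolactone oxidase (HORVU.MOREX.r3.3HG0315590.1, log2FC 1.32, SE 0.12, adjusted *p* 0.000327), of a family linked to ascorbate synthesis, and a serine-rich protein (HORVU.MOREX.r3.4HG0380250.1, log2FC 1.89, SE 0.14, adjusted *p* 0.000137). Their mean levels were 78.3, 91.9 and 35.6 TPM in the solvent control and 191, 231 and 135 TPM upon ergosterol.

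Ergosterol was last set against the *S. indica* lipid extract, which was applied to root pieces in the same way and sequenced in 4 libraries. The transcripts that rose upon ergosterol summed to 12642, 12567, 12972 and 14389 TPM in these libraries, and to between 12911 and 14435 TPM upon ergosterol. In the direct comparison with limma, 0 transcripts passed both limits. An unadjusted *p* below 0.05 was found for 958 of the 18297, near the share that this limit admits where no transcript differs. Only 1 passed the adjusted *p* there, a DEAD-box RNA helicase (HORVU.MOREX.r3.6HG0558170.1), and it no longer did without any 1 of the ergosterol libraries or without *S. indica* lipid replicate 2 or 3 (adjusted *p* 0.0539 to 0.15).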

How the data were processed

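RNA-Seq libraries of roots treated with the solvent control (3), ergosterol (3) and *S. indica* lipids (4) were used. Per the labels and the methods, poly(A) RNA was sequenced as stranded paired-end libraries. Trimmomatic 0.39 was used by the authors for trimming and kallisto 0.46.1 for pseudoalignment to the cDNA of the MorexV3 assembly. The deposited signal is TPM per transcript and library. Reads of Golden Promise were thus assigned to transcripts of another cultivar, and reads of near-identical copies can be divided between them. The deposited columns of group means, log2 fold changes and sleuth *q*-values were not used. Of 43382 lines 5420 repeated a transcript with the same values and were dropped, which left 37962 transcripts of 35826 loci, each library summing to 1000000 TPM.

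log2(TPM + 1) of all 10 libraries was fitted with limma 3.58.1 (R 4.3.3) with 1 mean per group and moderated variances with a trend, for transcripts that averaged 1 TPM or more in the 6 solvent control and ergosterol libraries. *p* were adjusted by Benjamini-Hochberg, and both limits (0.05 and a log2FC of 1) applied to calls. Tested on simulated data of this comparison (18297 transcripts, 200 changed), the fit recovered 172 at a log2FC of 1.5 with 4 false calls and 196 at 2 with 9. Smaller changes, the range of 147 of the 210 rises, were not simulated. Nor were deviations that many transcripts of a library share.

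Gene classes (78) were matched by words in the descriptions that the table gives, and the words of 6 classes were corrected for wrong matches once the descriptions had been read and before the fit. Of the identifiers, 0 matched the RefSeq gene table, so neither positions nor sequences are shown. Chromosomes and neighbourhood were read from the identifiers. The transcripts to be named were the 10 largest rises and falls, up to 4 called members per class with the largest change or, where none was called, the member with the smallest *p*, and the 10 largest gains and 5 largest losses in mean TPM at an adjusted *p* of at most 0.05; others are named as such, or as neighbours or lead members within their class. Members, classes and this rule were chosen with earlier results of these data known. The alternatives were pseudocounts of 0.1 and 0.5, other abundance minima, median-ratio and quantile scaling, other fits and limits, and each library left out in turn. Python 3.11.15 with pandas 2.3.3 and matplotlib 3.10.9 served for all other steps.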

Additional observations from a re-analysis of the deposited data

Results flagged for a closer look

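The effects of ergosterol and of the *S. indica* lipid extract differed in 1 transcript by the adjusted *p* of the direct limma test, the DEAD-box RNA helicase HORVU.MOREX.r3.6HG0558170.1. Its level was 38.3, 39.7 and 43.1 TPM upon ergosterol, 33.9, 32.1 and 36.1 TPM in the solvent control, and 20.4 ± 1.58 TPM (SD, n = 4) upon the lipid extract. The log2FC of ergosterol against the extract was 0.95 (SE 0.09, adjusted *p* 0.0102), and that of ergosterol against the solvent control was 0.24 (SE 0.10, adjusted *p* 0.211). The difference from the extract was not called without ergosterol replicates 1, 2 or 3 (adjusted *p* 0.0716, 0.0983 and 0.15), without *S. indica* lipid replicates 2 or 3 (0.0546 and 0.0539) or with the replicate number as a block (0.105), at a log2FC of 0.90 to 0.99 in these fits.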

How the results depend on the processing

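The 210 rises became 518 without the log2FC limit and otherwise stayed within 1.5 times of that count, from 152 with the adjusted *p* limited to 0.01 to 270 with array weights, and 155 to 252 with 1 library left out. The 13 falls were less stable. They became 25 with a pseudocount of 0.1, 5 with a minimum mean of 5 TPM, 153 with array weights, 84 without the log2FC limit and 6 with the adjusted *p* limited to 0.01, and 12 to 26 with 1 library left out. Array weights ranged from 0.548 for solvent control replicate 1 to 2.32 for replicate 3. Median-ratio scaling kept all 210 rises and 11 of the falls. Without the trend, and with array weights, 1 transcript differed between ergosterol and *S. indica* lipids by both limits instead of 0, and 0 did with 1 library left out; these alternatives for that comparison were chosen after seeing the data. The cause of these shifts was not tested. With the replicate number as a block there were 208 rises and 35 falls. The deviations of same-numbered libraries from their group means correlated at 0.0728, −0.191 and 0.0102 for replicates 1, 2 and 3. Not every library correlated best with its own number. With 3 libraries in each of these groups, this cannot tell whether libraries of the same number shared a batch. Of 166 named transcripts 0 reversed in any alternative. Depth could not be judged from TPM.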

Other observations

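Some large differences did not pass the test. A log2FC of at least 1 without a call was found for 72 transcripts upwards, 32 of them without overlap of the groups, and a log2FC of at most −1 for 140 downwards, 63 of them without overlap. The early nodulin 93 transcript HORVU.MOREX.r3.7HG0649490.1, chosen after its values were seen, stood at 1.08, 17.1 and 12.8 TPM in the solvent control and at 24.8, 48.8 and 30.8 TPM upon ergosterol (SE of the log2FC 0.66, limma adjusted *p* 0.122).

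The transcript HORVU.MOREX.r3.5HG0436260.1, described as a nucleotide-binding transmembrane receptor protein, was measured at 2222, 4094 and 7300 TPM in the solvent control and at 3746 and 4781 TPM in ergosterol replicates 2 and 3, but was listed at 0 in ergosterol replicate 1. It was the only 1 of the 37962 transcripts with a median above 100 TPM over the 6 libraries that was listed at 0 in any of them. Whether the 0 is an absent transcript or a failed estimate was not tested.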
